A study of Mus musculus with 6 samples.

Results

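The genes described here are subunits of the transcription factor NF-kB and genes grouped with them as feedback inhibitors. They are 10 of the 54453 genes in the tables: Nfkb1, Nfkb2, Rela, Relb, Nfkbia, Nfkbib, Nfkbie, Nfkbiz, Tnfaip3 and Birc3. They were chosen by gene symbol, each matched 1 Ensembl gene of GRCm38, and all 10 were among the 14169 genes with enough counts to be tested. RNA was sequenced from mouse pancreatic ductal adenocarcinoma (PDAC) organoids, which are epithelial tumour cultures in Matrigel, of 3 lines of genotype KPF/FC. Each of the lines T118 (male, passage 11), T113 (male, passage 13) and T91 (female, passage 10) carried either hairpin number 5523 against Scrib or a control hairpin against the Renilla locus, giving 3 libraries a group. The lines are called KPC, a name used for mouse models of PDAC, and the labels do not spell out KPF/FC. The hairpins were delivered by virus, so every library came from infected cells, and 1 Scrib hairpin was used. With a single library for each line and hairpin, the error comes from how alike the difference between the hairpins was across the lines. The fit also draws on all tested genes to estimate this error.

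NF-kB is a family of dimers held in the cytoplasm by inhibitors of the I-kB family. In the canonical branch the IKK kinase marks I-kB for destruction and sets free dimers of RelA and p50, and in the non-canonical branch the kinase NIK leads to processing of p100 into p52, which pairs with RelB. The freed dimers switch on genes of inflammation and survival together with their own brakes, so the RNA of several brakes is a widely used readout of the pathway. NF-kB is known to be active in many pancreatic cancers. RNA levels do not measure the position or activity of the proteins.

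The promoters of Nfkbia and Tnfaip3 are shown because these brakes are textbook NF-kB targets and were among the genes with the largest differences below. RefSeq promoter windows of 300 bases on GRCm38.p6 matched 7 of the 10 genes, with 10 windows. They were searched on both strands for the kB consensus, which reads GGG, a purine, 2 bases of any kind, 2 pyrimidines and CC, and for the letters GGANNTTCC, where N is any base, and matches of the searches may overlap. Both sequences run 5′ to 3′ on the strand of the gene (minus) from 250 bases before to 50 bases after the start, and capitals mark every match.
Nfkbia, chr12:55492598-55492897: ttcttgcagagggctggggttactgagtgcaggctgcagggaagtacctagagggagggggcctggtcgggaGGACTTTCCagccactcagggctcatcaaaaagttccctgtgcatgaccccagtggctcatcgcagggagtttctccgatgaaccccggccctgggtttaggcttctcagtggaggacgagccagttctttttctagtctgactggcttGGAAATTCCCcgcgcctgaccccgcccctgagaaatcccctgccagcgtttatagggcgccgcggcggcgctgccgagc
Tnfaip3, chr10:19015361-19015660: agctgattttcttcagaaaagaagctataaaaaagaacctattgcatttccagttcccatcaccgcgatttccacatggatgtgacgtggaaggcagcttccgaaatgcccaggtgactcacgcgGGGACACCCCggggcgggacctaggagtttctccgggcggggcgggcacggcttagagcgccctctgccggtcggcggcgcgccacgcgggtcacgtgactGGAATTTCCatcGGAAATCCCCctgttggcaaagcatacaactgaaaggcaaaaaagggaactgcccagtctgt
The consensus was present in 6 of the 10 windows, against 8.46% of all 32851 windows of this length. GGANNTTCC was present in 5 of the 10, against 4.26% of all windows. Both were found in windows of the same 4 of the 7 genes (Nfkb2, Nfkbia, Nfkbie and Tnfaip3). Nfkb2 had windows that overlapped and shared a match, and the other window of Tnfaip3 held neither. The windows of Rela, Nfkbib and Birc3 held neither. A match describes the letters and is not a binding site.

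Scaled for length, the inhibitor Nfkbia and the activating subunit Rela were the most abundant of the 10 genes. Levels are given as CPM (counts scaled to a library of fixed size) after TMM scaling, divided by the merged exon length in kilobases where genes are compared. Nfkbia, which encodes I-kB alpha, averaged 30.5 CPM per kilobase over the 6 libraries (20.4 to 42.0), and Rela 22.0 CPM per kilobase (17.8 to 28.1). Nfkbib, which encodes I-kB beta, followed at 14.9, Nfkb2, which encodes p100 and p52, at 12.5, and Nfkbiz, which encodes the nuclear regulator I-kB zeta, at 9.68 CPM per kilobase. Nfkb1, which encodes p105 and p50, had rank 6 at 7.30 CPM per kilobase. The non-canonical partner Relb was at 3.74, the ubiquitin ligase gene Birc3 (cIAP2) at 2.96 and Tnfaip3, which encodes the ubiquitin-editing brake A20, at 2.81 CPM per kilobase. Nfkbie, which encodes I-kB epsilon, was scarcest at 0.975 CPM per kilobase (0.403 to 1.96). The ranges of neighbours in this order overlapped except between Rela and Nfkbib and between Nfkb1 and Relb. The order rests on the length used, since with the longest annotated transcript Nfkb1 came to rank 3 at 21.2 CPM per kilobase. Nfkbia and Rela came first and second in each line.

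**Figure D1:**
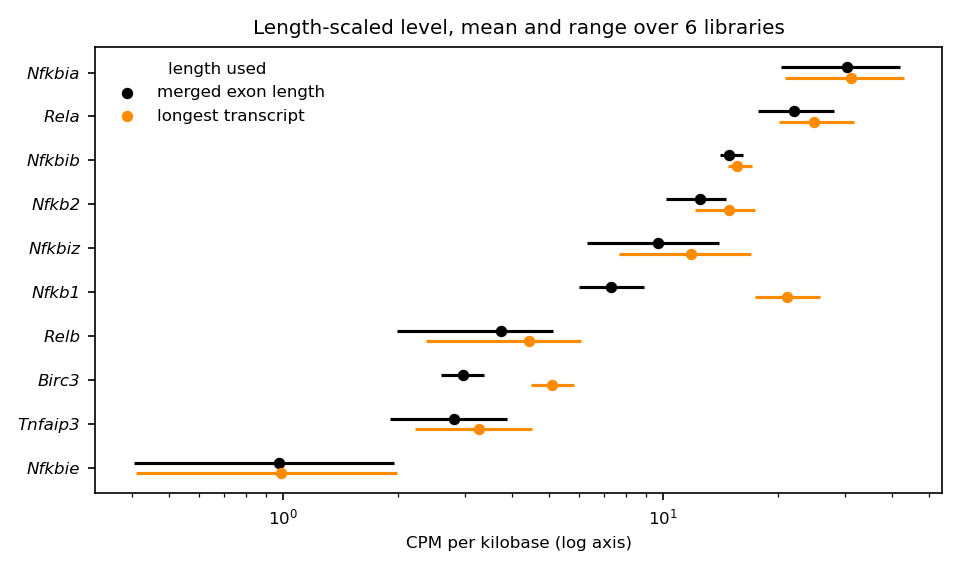
CPM per kilobase on a log axis for each gene, with the mean as a point and the range over the 6 libraries as a line, for merged exon length (black) and the longest annotated transcript (orange). Nfkbia and Rela are highest and Nfkbie lowest with either length, and Nfkb1 moves from rank 6 to rank 3.

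Scrib, the targeted polarity gene, averaged 31.6 ± 2.95 CPM with the Scrib hairpin and 164 ± 11.1 CPM with the Renilla hairpin (SD, n = 3 each). None of the 10 NF-kB genes passed edgeR's quasi-likelihood test with line and hairpin terms and Benjamini-Hochberg adjustment over all genes (0 of 10, where 0.00706% of the genes tested were called). DESeq2 and limma-voom with the same terms also called 0 of 10, where 63 and 8 of all 14169 tested genes were called. By these methods 2 and 3 of the 10 had an unadjusted p under 0.05, against 766 and 1006 of all tested genes in either direction. Nfkbiz, Tnfaip3 and Nfkb1 had the smallest p-values. These 3 had an unadjusted p under 0.05 by edgeR, against 5.06% of all tested genes that were lower at that level, and they were the 3 of the 10 that were lower with the Scrib hairpin in every line, against 15.4% of all tested genes. The count at an unadjusted p under 0.05 by edgeR was 0 with the libraries taken as unpaired, 1 (Nfkbiz) without T113, 2 without T118 and 4 without T91. Over all tested genes the count in either direction moved too, from 936 of 14169 to 143 of 14169 with unpaired libraries. It was 369 of 14338 without T113, 821 of 14416 without T118 and 2401 of 14366 without T91. No gene of the 10 had Scrib hairpin libraries that all lay below the Renilla hairpin libraries, against 2.14% of the genes tested. In such bulk samples, fewer cells of a type and less RNA per cell cannot be told apart.

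Nfkbiz (ENSMUSG00000035356, chr16:55811375-55838899 on the minus strand of GRCm38) is an atypical I-kB that acts in the nucleus as a co-activator of inflammatory genes. It stood at 31.5 CPM in T118, 42.6 CPM in T113 and 52.0 CPM in T91 with the Scrib hairpin, against 44.1, 51.2 and 70.1 CPM with the Renilla hairpin in the same lines. The Scrib hairpin library was the lower one in each line, although T91 with the Scrib hairpin was above T118 and T113 with the Renilla hairpin. The fit put Nfkbiz at 76.2% of the control level, a log2 fold change of -0.39 (SE 0.10, 95% interval -0.62 to -0.16). Its unadjusted p by edgeR was 0.00570 and its adjusted p 0.613.

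Tnfaip3 (ENSMUSG00000019850, chr10:19000910-19015657, minus strand) removes and adds ubiquitin chains upstream of IKK and is induced by NF-kB, with kB letters close to its start in the promoter printed above. It was at 14.4 CPM in T118, 13.8 CPM in T113 and 24.6 CPM in T91 with the Scrib hairpin, against 18.1, 22.9 and 28.0 CPM with the Renilla hairpin. The Scrib hairpin library was lower in each line, by most in T113. The fit put Tnfaip3 at 74.9% of the control level, a log2 fold change of -0.42 (SE 0.14, 95% interval -0.75 to -0.08), with an adjusted p of 0.744 by edgeR. Without T113 it was -0.26, with an unadjusted p of 0.252 by edgeR.

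Nfkb1 (ENSMUSG00000028163, chr3:135584655-135691547, minus strand) supplies the p50 part of the canonical dimer, and its unprocessed product p105 also holds Rel proteins back. It was at 72.2 CPM in T118, 85.3 CPM in T113 and 85.2 CPM in T91 with the Scrib hairpin, against 83.2, 95.3 and 107 CPM with the Renilla hairpin. The Scrib hairpin library was again the lower one of each line. For Nfkb1 edgeR gave a log2 fold change of -0.23 (SE 0.09, 95% interval -0.45 to -0.01) and an adjusted p of 0.753.

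The other subunits of the canonical and non-canonical dimers gave small or mixed differences. Rela (ENSMUSG00000024927, chr19:5637483-5648130, plus strand) encodes the subunit with the main activating domain. It was at 54.6 CPM in T118, 65.8 CPM in T113 and 86.3 CPM in T91 with the Scrib hairpin, against 56.9, 65.1 and 77.4 CPM with the Renilla hairpin. With either hairpin T118 was lowest and T91 highest. Rela averaged 68.9 ± 16.0 CPM with the Scrib hairpin and 66.5 ± 10.3 CPM with the Renilla hairpin (SD, n = 3 each), and the 95% interval of its log2 fold change ran from -0.19 to 0.27 around 0.04. Nfkb2 (ENSMUSG00000025225, chr19:46304320-46312385, plus strand) was at 46.6 CPM in T118, 56.9 CPM in T113 and 67.0 CPM in T91 with the Scrib hairpin, against 49.6, 60.6 and 62.0 CPM with the Renilla hairpin. It shares exon bases with the opposite-strand gene Psd, whose reads may not be told apart. Nfkb2 averaged 56.8 ± 10.2 CPM with the Scrib hairpin and 57.4 ± 6.76 CPM with the Renilla hairpin (SD, n = 3 each), and its interval ran from -0.25 to 0.21 around -0.02. The groups overlapped for both genes.

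Relb (ENSMUSG00000002983, chr7:19606217-19629438, minus strand) pairs with p52 and is itself an NF-kB target. It was at 7.76 CPM in T118, 12.7 CPM in T113 and 19.9 CPM in T91 with the Scrib hairpin, against 12.3, 18.4 and 16.1 CPM with the Renilla hairpin. The Scrib hairpin library was lower in T118 and T113 and higher in T91, and the groups overlapped. The fitted log2 fold change of Relb was -0.29 with a 95% interval from -0.80 to 0.21. It was -0.60 without T91 (adjusted p of 0.131 by edgeR), -0.17 without T113 and -0.12 without T118.

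Nfkbia (ENSMUSG00000021025, chr12:55489410-55492647, minus strand), the classical feedback inhibitor, had the same mixed directions. It was at 32.9 CPM in T118, 34.0 CPM in T113 and 67.6 CPM in T91 with the Scrib hairpin, against 46.1, 53.6 and 60.2 CPM with the Renilla hairpin. Both the lowest and the highest library of the 6 carried the Scrib hairpin. For Nfkbia edgeR gave a log2 fold change of -0.32 (SE 0.17, 95% interval -0.73 to 0.08) and an adjusted p of 0.780. Without T91 the same fit gave -0.57 with an adjusted p of 0.0576, and without T113 it gave -0.15.

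Birc3 (ENSMUSG00000032000, chr9:7848699-7873186, minus strand) adds ubiquitin to signalling proteins of the TNF receptor complex and restrains NIK together with its relative Birc2. Birc3 was at 13.1 CPM in T118, 13.1 CPM in T113 and 15.1 CPM in T91 with the Scrib hairpin, against 16.9, 15.8 and 15.1 CPM with the Renilla hairpin. It was lower in T118 and T113 and nearly level in T91, with log2 ratios of -0.37, -0.28 and 0.01, the last turning negative without TMM scaling. Its fitted log2 fold change was -0.22 (95% interval -0.54 to 0.11), and that of Birc2 was -0.11 (SE 0.11). Birc3 was at -0.32 without T91 and -0.14 without T118.

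The 2 remaining cytoplasmic inhibitors gave log2 fold changes close to 0. Nfkbib (ENSMUSG00000030595, chr7:28758251-28767512, minus strand) is regarded as a slower and less inducible I-kB, and it shares exon bases with the opposite-strand genes Sirt2 and Ccer2. It was at 30.6 CPM in T118, 32.5 CPM in T113 and 35.2 CPM in T91 with the Scrib hairpin, against 32.1, 32.2 and 30.8 CPM with the Renilla hairpin. The libraries lay close together, and Nfkbib averaged 32.8 ± 2.35 CPM with the Scrib hairpin and 31.7 ± 0.757 CPM with the Renilla hairpin (SD, n = 3 each), with a 95% interval of the log2 fold change from -0.20 to 0.29. Nfkbie (ENSMUSG00000023947, chr17:45555703-45563169, plus strand) was at 1.43 CPM in T118, 1.69 CPM in T113 and 5.97 CPM in T91 with the Scrib hairpin, against 1.23, 2.53 and 4.96 CPM with the Renilla hairpin. Nfkbie rested on 39, 52 and 142 counts with the Scrib hairpin and 36, 94 and 148 counts with the Renilla hairpin, and its 95% interval from -0.66 to 0.60 was the widest of the 10.

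**Figure D2:**
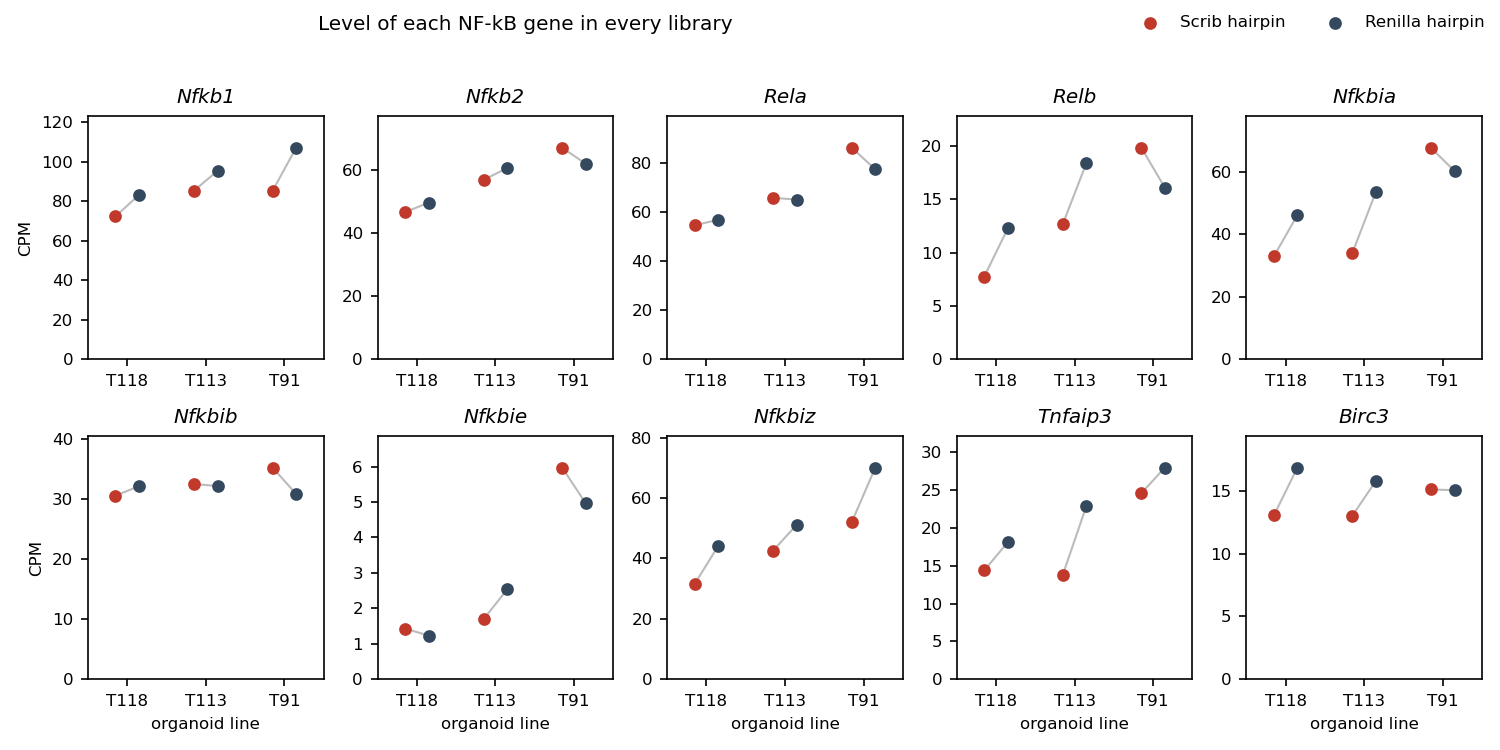
CPM of each gene in every library (vertical axes start at 0), with the Scrib hairpin in red left of the Renilla hairpin in grey-blue and the libraries of a line joined. For Nfkbiz, Tnfaip3 and Nfkb1 the red point is the lower one in each line, and for Relb and Nfkbia it is lower in T118 and T113 and higher in T91.

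For the other 7 genes the direction was not the same in all lines. With the Scrib hairpin 9 of the 10 genes were lower in T118 (50.2% of all tested genes), 8 in T113 (50.5%) and 3 in T91 (49.8%). The median log2 ratio of the 10 genes was -0.27 in T118, -0.27 in T113 and 0.13 in T91, and that of all tested genes was within 0.01 of 0 in each line. Nfkb2, Relb, Nfkbia and Birc3 were lower in both T118 and T113 and higher in T91, 4 of 10 genes where 17.0% of all tested genes had that pattern (without TMM scaling Birc3 was lower in T91 too), and 7 of 10 were lower in both T118 and T113 where 32.5% of all were. The log2 ratio of Relb was -0.66 in T118 (95% counting interval -0.91 to -0.41), -0.54 in T113 (-0.72 to -0.35) and 0.30 in T91 (0.12 to 0.49). That of Nfkbia was -0.49 (-0.61 to -0.36), -0.66 (-0.77 to -0.55) and 0.17 (0.07 to 0.27) in the same order. For both genes the intervals lay on opposite sides of 0 in T91 and in the other lines. Intervals that left out 0 were common, with 6 of the 10 genes in T118, 8 in T113 and 8 in T91. These exact binomial intervals cover counting error only. Whether the lines differ in their response could not be tested, since each line had 1 library per hairpin.

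**Figure D3:**
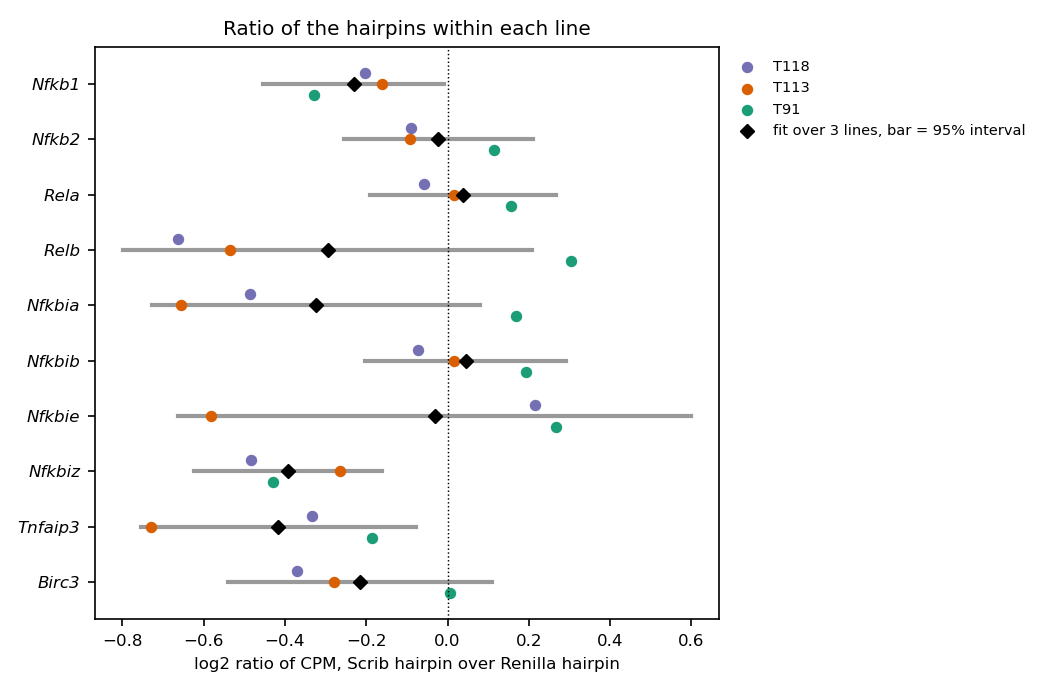
Log2 ratio of CPM, Scrib hairpin over Renilla hairpin, for each gene in T118 (purple), T113 (orange) and T91 (green), with the fitted log2 fold change as a black diamond and its 95% interval as a grey bar. The intervals of Nfkb1, Nfkbiz and Tnfaip3 lie below 0, and the T91 points lie above 0 for 7 of the 10 genes.

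Leukocyte and fibroblast markers had their highest sums, low beside the epithelial ones, in the T91 library with the Scrib hairpin. The epithelial markers Epcam, Krt8, Krt18, Krt19, Cdh1, Krt7, Cldn4 and Cldn7 summed to 10075 CPM (unscaled) in T118, 7778 CPM in T113 and 10618 CPM in T91 with the Scrib hairpin, against 13078, 8484 and 9532 CPM with the Renilla hairpin. The 11 leukocyte and macrophage markers summed to 11.9 CPM in T118, 28.7 CPM in T113 and 44.5 CPM in T91 with the Scrib hairpin, against 17.2, 31.9 and 34.6 CPM with the Renilla hairpin. Both sums were lower in T118 and T113 and higher in T91, the directions seen for Relb and Nfkbia and for 17.0% of all tested genes. Among the epithelial markers Epcam, Krt8, Krt19, Cldn4 and Cldn7 had these directions. Cdh1 was lower with the Scrib hairpin in T91 too (801 against 943 CPM). Krt18 (1354 against 1344 CPM) and Krt7 (1399 against 1247 CPM) were higher with it in T113. Most of the leukocyte sum was Cd14, and Ptprc and Adgre1 were at no more than 0.10 CPM in any library. In the T91 library with the Scrib hairpin, Lyz2 was at 1.12 CPM and C1qa at 0.749 CPM, against 0.10 and 0.0334 CPM in T91 with the Renilla hairpin. The 9 fibroblast markers, mostly Pdpn, summed to between 19.7 and 109 CPM in Scrib hairpin libraries and between 14.2 and 94.8 CPM in Renilla hairpin libraries, higher with the Scrib hairpin in each line, and Lum was at 0. Col1a1 was at 3.49 CPM in T91 with the Scrib hairpin and 0.501 CPM in T91 with the Renilla hairpin. The 5 endothelial markers summed to at most 1.64 CPM with the Scrib hairpin and 1.4 CPM with the Renilla hairpin. The part of these marker differences in the ratios of the NF-kB genes was not tested. Library totals ran from 24035559 to 36235773 counts, and mitochondrial genes took 1.69% to 2.32% of the counts.

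Line took more of the variance than hairpin for 9 of the 10 genes, Birc3 being the exception. For 9 of the 10, again all but Birc3, T91 was highest on average and T118 lowest. The shares of all tested genes with these traits were not counted, so neither count can be read as particular to the 10 genes. Line had 3 levels and hairpin 2, so line can take more of the variance by design. The line held a median of 64.3% of the variance of log2 CPM over the 10 genes (62.8% over all tested genes), and the hairpin a median of 14.2% (8.09% over all). By edgeR's F-test of the line terms with adjustment over all genes, 2 of the 10 genes differed between lines, Nfkbie and Nfkbiz, where 14.0% of all tested genes were called. In pairwise contrasts 3 of the 10 were lower in T118 than in T91, where 5.80% of all genes were. None passed as lower in T113 than in T91 (3.17% of all genes) or lower in T118 than in T113 (5.34%). Sex and passage go with the line and cannot be told apart from it.

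Nfkbie had the widest range over the lines. It averaged 1.33 CPM in T118, 2.11 CPM in T113 and 5.47 CPM in T91 over both hairpins, so that T118 lay -2.04 from T91 on the log2 scale (SE 0.33), with an adjusted p of 0.0124 by edgeR and of 0.0171 in the F-test of both line terms. Both T91 libraries were above the other 4. Without T91 the F-test gave an adjusted p of 0.246. Nfkbiz averaged 37.8 CPM in T118, 46.9 CPM in T113 and 61.1 CPM in T91. It was lower in T118 than in T91, at -0.69 on the log2 scale (SE 0.12), with an adjusted p of 0.0153 by edgeR and of 0.0263 in the F-test. With any line left out, the adjusted p of that F-test by edgeR was between 0.0547 and 0.123, and with no hairpin term it was 0.125. Rela averaged 55.8 CPM in T118, 65.5 CPM in T113 and 81.9 CPM in T91, and T118 lay -0.55 from T91 on the log2 scale (SE 0.12). Its adjusted p by edgeR was 0.0307 in that contrast, and 0.0523 in the F-test, which missed the threshold. Both T91 libraries were the highest and both T118 libraries the lowest for Rela.

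None of the remaining genes passed edgeR's main test between lines over all 6 libraries. With DESeq2 Nfkbia (adjusted p of 0.0227), Tnfaip3 (0.0274) and Rela (0.0140) passed too. DESeq2 called 2650 of all 14169 tested genes between lines, against 1989 in edgeR's main test. Tnfaip3 also passed in edgeR without a low-count filter (0.0224), and Relb passed in edgeR without T91 (0.0205). Rela passed edgeR's F-test with no scaling beyond the total count (adjusted p of 0.045), without a low-count filter (0.0307) and with no hairpin term (0.0384). Nfkb2 averaged 48.1 CPM in T118, 58.7 CPM in T113 and 64.5 CPM in T91, Relb 10.0 CPM, 15.5 CPM and 18.0 CPM, Nfkbia 39.5 CPM, 43.8 CPM and 63.9 CPM, and Tnfaip3 16.3 CPM, 18.3 CPM and 26.3 CPM in the same order. Each was lowest in T118 and highest in T91, and the F-test missed the threshold for all 4 (adjusted p of 0.0688 to 0.133 by edgeR). Nfkbib and Birc3 were nearly level, with the highest line at 1.05 times the lowest for both (adjusted p of 0.90 and 0.936 by edgeR's F-test).

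**Figure D4:**
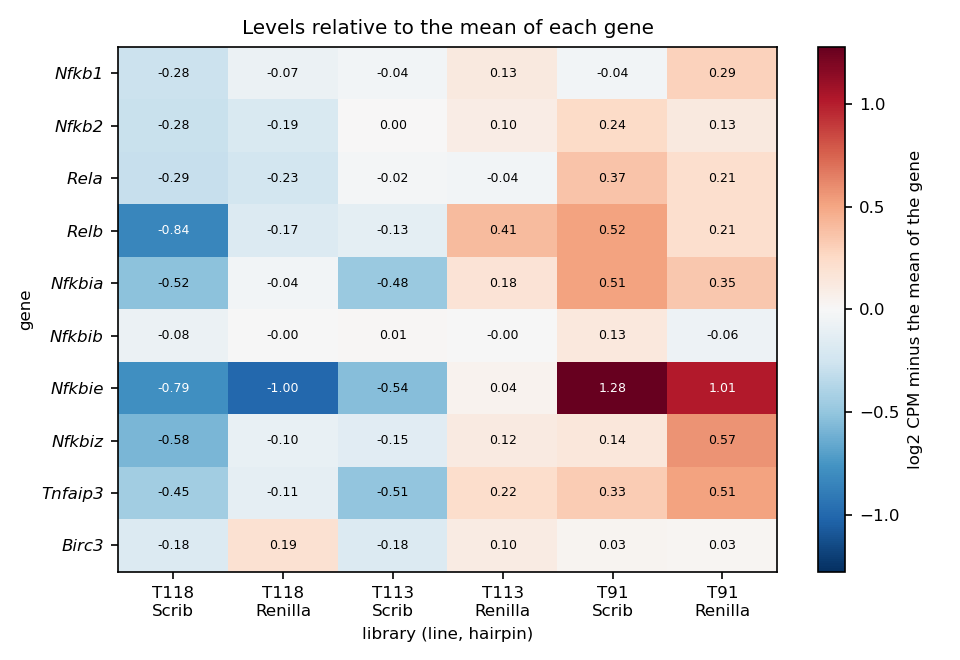
Log2 CPM minus the mean of the gene over the 6 libraries, with genes as rows and libraries as columns, the Scrib hairpin left of the Renilla hairpin in each line. Nfkbie runs between 1.28 in T91 with the Scrib hairpin and -1.0 in T118 with the Renilla hairpin, and Nfkbib and Birc3 stay within 0.2 of 0.

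Genes around the loop were counted in lists chosen with earlier results of these data known. Their counts stand beside 51.8% of all tested genes with a log2 fold change below 0, and no gene of the 6 lists passed edgeR's test over all genes. Of 20 genes of IKK and upstream signalling, 9 were lower and 11 higher with the Scrib hairpin, the median log2 fold change was 0.01, the range -0.24 to 0.15, and 0 had an unadjusted p under 0.05. The genes with the smallest p-values in each direction were Ikbkg, the regulatory subunit of IKK, at -0.17 (SE 0.09), the kinase gene Irak4 at -0.24 (0.14) among those lower, and the adaptor genes Traf2 at 0.15 (0.09) and Myd88 at 0.14 (0.10) among those higher. The other Rel and I-kB family genes had log2 fold changes of -0.19 for Rel, -0.03 for Bcl3 and 0.01 for Nfkbid.

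Of 10 other brakes of the pathway 8 were lower, with a median log2 fold change of -0.15, and 0 had an unadjusted p under 0.05. Tnip3, a partner of A20, was at -0.96 (SE 0.46) with an average under 1 CPM in each group, and Tnip2 at -0.25 (0.15). The deubiquitinase gene Otulin was at 0.18 (0.10) and Rnf11 at 0.17 (0.11).

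Of 13 receptor genes tested (of 14), 10 were lower, with a median log2 fold change of -0.11, and 4 of them had an unadjusted p under 0.05 (5.06% of all tested genes were lower at that level). Tnfrsf11a, which encodes the receptor RANK, was at 13.1 CPM in T118, 8.46 CPM in T113 and 2.86 CPM in T91 with the Scrib hairpin, against 20.6, 12.6 and 5.0 CPM with the Renilla hairpin. It was lower in each line, at a log2 fold change of -0.67 (SE 0.14), with an adjusted p of 0.554 by edgeR. The others were the TNF receptor gene Tnfrsf1b at -0.34 (0.11), the interleukin-1 receptor gene Il1r1 at -0.31 (0.11) and Tlr4, a receptor for bacterial lipopolysaccharide, at -0.34 (0.14). The highest log2 fold changes were those of Il17ra at 0.08 (0.10) and Ltbr at 0.08 (0.10). Of 10 ligand genes only Il1a and Tnf were tested, at log2 fold changes of -1.07 (SE 0.34) and -0.29 (SE 0.18). Il1a was low, averaging 1.69 CPM with the Scrib hairpin and 3.30 CPM with the Renilla hairpin. Its log2 ratios were -1.81 in T118, -1.20 in T113 and -0.26 in T91.

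Targets outside the feedback loop were mixed. Of 15 tested (of 20), 11 were lower, with a median log2 fold change of -0.19 and per-line medians of -0.38 in T118, -0.22 in T113 and 0.04 in T91. An unadjusted p under 0.05, which 5.06% of all tested genes had as lower ones, was found for 2, Tnfaip2 at -0.35 (0.12) and the early response gene Ier3 at -0.53 (0.19). Ier3 was at 33.5 CPM in T118, 41.0 CPM in T113 and 109 CPM in T91 with the Scrib hairpin, against 55.6, 76.8 and 105 CPM with the Renilla hairpin, lower in T118 and T113 and slightly higher in T91. The adhesion receptor gene Icam1 was at 0.19 (0.13) and the mitochondrial superoxide dismutase gene Sod2 at 0.06 (0.09). Between lines 9 of the 15 targets passed edgeR's F-test, where 14.0% of all tested genes did.

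The genes whose log2 CPM over the 6 libraries was most like that of Nfkbia were Sdcbp (Pearson r of 0.993), Ier3 (0.985), Supt7l (0.983), Errfi1 (0.975) and Fos (0.972). The 6 libraries come as 3 pairs that share a line, and 93 of 10066 genes compared had an r of at least 0.9, so the values are a description.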

How the data were processed

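RNA of 6 organoid cultures was sequenced as mRNA libraries. The submitters' processing notes name Salmon 1.4.0, DESeq 2, GRCm38 and mm10, without saying what each was used for. The annotation and strand setting behind the counts were not stated. The authors deposited estimated counts (expected counts) per Ensembl gene, not scaled for depth. Without a stated strand setting, reads of Nfkb2 and Nfkbib may not be told apart from those of the opposite-strand genes sharing exon bases with them (Psd and AC114539.1 for Nfkb2, Sirt2 and Ccer2 for Nfkbib).

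Counts were rounded and filtered with filterByExpr (minimum count 10, leaving 14169 genes), library sizes were scaled by TMM, and edgeR 4.0.16 in R 4.3.3 fitted line and hairpin terms (quasi-likelihood, robust, two-sided). Benjamini-Hochberg adjustment ran over all genes tested, at a threshold of 0.05. Alternatives were DESeq2 1.42.0, limma 3.58.1 (voom), other scalings and filters, no replicate block, and each line left out in turn. Libraries of a line were treated as pairs because both came from that line; their deviations from the group means correlated at 0.662 in T118, 0.666 in T113 and 0.621 in T91 across genes. Log2 CPM for correlations and shares of variance had a prior count of 2. The edgeR fit was tested on simulated data. The simulated hairpin changes were larger than those of the 10 genes and the same in all lines, so recovery at the sizes seen here was not tested. Symbols, positions and lengths came from GENCODE M21 (GRCm38), and promoters from RefSeq (GRCm38.p6).

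The 10 genes, the lists and the tests were chosen with earlier results of these data known. The text names all 10, Scrib, the up to 2 genes per list and direction with the smallest p, and the 5 genes most like Nfkbia. Il1r1 and Tlr4, the marker genes named singly and Birc2 were named after their values were seen.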

Additional observations from a re-analysis of the deposited data

Results flagged for a closer look

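Relb was singled out because its log2 ratio of Scrib over Renilla hairpin had opposite signs in different lines, each at least 0.3 in size. It was -0.663 in T118, -0.536 in T113 and 0.303 in T91. The difference between the lines was not tested, since each line had 1 library per hairpin.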

How the results depend on the processing

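Under all 11 alternatives of the hairpin test, 0 of the 10 genes passed the adjusted threshold, and Nfkbiz, Tnfaip3, Nfkb1, Nfkbia, Relb and Birc3 kept a negative log2 fold change. The count of genes with an unadjusted p under 0.05 (3) was 0 with no replicate block (unpaired libraries), and between 1 (without T113) and 4 (without T91) when a line was left out. Over all tested genes that count (936) was 143 with no replicate block, 369 without T113 and 2401 without T91. The count lower in each line (3, against 15.4% of all tested genes) was 7 when T91 was left out. Being lower in both T113 and T118 was then enough, as 32.5% of all tested genes were. The count was 3 when T113 was left out, and the share of all genes for that pair of lines was not counted. The sign turned for 4 genes. With a line left out, the log2 fold change of Nfkb2 ran from -0.0904 without T91 to 0.0156 without T113 (0.00827 without T118), that of Nfkbib from -0.0280 without T91 to 0.101 without T118, that of Rela from -0.0210 without T91 to 0.0826 without T118, and that of Nfkbie from -0.204 without T91 to 0.247 without T113. With no replicate block Nfkbie was at 0.0565. The count of genes called between lines (2) was 4 without a low-count filter, 3 with no scaling beyond the total count and 5 with DESeq2. Over all tested genes that count (1989 of 14169) was 2966 of 27467, 2070 of 14169 and 2650 of 14169 in the same order. For the 10 genes it was 1 with an average of at least 5 CPM, which leaves out Nfkbie, and 1 when any line was left out. Over all tested genes it was 1310 of 10304 with that filter. Without T91, T113 and T118 it was 3305 of 14366, 1209 of 14338 and 1634 of 14416. The cause was not tested. Over all genes the hairpin test called 1, against 64 without a low-count filter, 63 with DESeq2, 8 with limma-voom, and 94, 9 and 25 without T91, T113 and T118. The planned legacy method of edgeR is the default used throughout and was not run apart; the newer one was added after seeing the data and also called 0 of the 10 genes.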
